A study of Homo sapiens with 12 samples.

Results

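Cells treated with the MET, ALK and ROS1 kinase inhibitor crizotinib were compared directly with cells treated with the FAK (focal adhesion kinase) inhibitor IN10018. The control was left out of the contrast. The comparison sets 6 of the 12 RNA-sequencing libraries against each other, 3 labelled with crizotinib (spelled Criozotinib in the labels) and 3 with IN10018. The low-count filter and the fit used all 12 libraries, and 17096 of 60623 genes passed. With the 6 libraries alone 16079 genes were tested, so some genes, such as CCN2, were tested only through the control and combination libraries. All libraries come from NUGC-4, an established cell line that the labels call a diffuse gastric cancer line of wild-type genotype. The groups were crizotinib at 1 µM, IN10018 at 1 µM, both drugs together at 1 µM each, and a control, each for 24 h and with 3 libraries. The series title concerns joint FAK and ROS1 inhibition in CDH1-deficient cancers, and the direct contrast asks which genes separate the responses to the single drugs at the same nominal dose and time. All data come from 1 cell line. Nothing in the labels tells separate cultures from repeat preparations within a group, so each p-value speaks only of the spread among these libraries, which may be technical.

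FAK, encoded by PTK2, is a cytoplasmic tyrosine kinase that relays integrin signals from sites of cell attachment, and IN10018 blocks its kinase activity. Crizotinib occupies the ATP pocket of MET, ALK and ROS1, receptor tyrosine kinases whose signals run through the RAS-ERK and PI3K-AKT pathways. ERK induces immediate early genes such as FOS and EGR1, AKT keeps FOXO transcription factors out of the nucleus, and both FAK and receptor kinases feed the co-activators YAP and TAZ, which act with TEAD factors.

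Total counts were 14908752 to 20059012 reads in the 6 libraries. The 3 IN10018 libraries lay close together and the 3 crizotinib libraries did not: the median standard deviation of a gene's log2 CPM (reads per 1e+06 of the TMM-scaled library total) was 0.109 within IN10018 and 0.268 within crizotinib. On the first principal component of the 6 libraries, which held 63.4% of the variance, IN10018 libraries were at -29.1, -29 and -30.6 and crizotinib libraries 1, 2 and 3 at -0.276, 69.4 and 19.6, so that crizotinib library 2 stood farthest from the others. Reads of mitochondrially encoded genes made up 11.5 to 12.7% of each IN10018 library and 13.3, 5.21 and 9.46% of crizotinib libraries 1, 2 and 3. Of the epithelial markers, the keratins KRT8 and KRT18 had 18264 to 37353 and 8184 to 17186 reads per library, EPCAM 226 to 336 and the keratin KRT19 0. The gastric marker TFF2 had 0, and CLDN18, MUC5AC and TFF1 at most 4. The description field names adipogenic differentiation, which no other label does; ADIPOQ had 0 reads and LEP at most 1, whereas FABP4 had 1010 to 2019. The immune markers CD3E and PTPRC had 0 and at most 4 reads. Of the endothelial markers, VWF had 0, PECAM1 126 to 345 and CDH5 125 to 287, and of the fibroblast markers COL1A1, COL1A2, DCN, LUM and PDGFRB had at most 63, while the collagen gene COL3A1 had 86775 to 116573. In bulk RNA, fewer cells of a type and less RNA per cell cannot be told apart.

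edgeR's quasi-likelihood test over all 12 libraries called 1974 genes higher with crizotinib than with IN10018 and 1764 lower, at a Benjamini-Hochberg adjusted p under 0.05; these are 11.5% and 10.3% of the genes tested. The median log2 difference was 0.04 over all genes and 0.67 in size among genes called higher, 0.59 among those called lower. A fold of at least 2 was reached by 316 genes called higher and 142 called lower. Groups did not overlap, each crizotinib library lying on the same side of each IN10018 library, for 3841 genes on the higher side (22.5%) and 3805 on the lower side (22.3%). Among called genes this held for 1909 of 1974 higher and 1759 of 1764 lower, so a lack of overlap adds little to a call. For the 12 largest changes each way it was a condition of the choice and adds nothing. With library totals in place of TMM the split was 2611 higher to 1423 lower, and the median over all genes 0.09.

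Most of these calls lay just inside the threshold, with a median adjusted p of 0.031, and how many survived depended on which libraries were in the fit. Of the 3738 calls, 2063, 2426 and 2294 were kept without control library 1, 2 and 3, 2573, 3734 and 3684 without combination library 1, 2 and 3, and 3648 without crizotinib library 1. Without crizotinib library 2 or 3 the fit kept 585 and 38 of them, and without IN10018 library 1, 2 or 3 it kept 13, 20 and 24. The median edgeR adjusted p of these calls was then 0.101 and 0.0561 without crizotinib 2 and 3. It was 0.0898, 0.096 and 0.0819 without IN10018 1, 2 and 3, so most lost calls lay not far past the threshold. A fit of the 6 libraries alone called 2 genes higher and 2 lower, although 6066 genes had an unadjusted p under 0.05 and the median adjusted p of the 3704 earlier calls it could test was 0.0576. Leaving out IN10018 library 1, 2 or 3 left 5, 8 and 10 genes higher and 8, 12 and 14 lower. Leaving out crizotinib library 1, 2 or 3 gave 3260, 230 and 19 higher and 3123, 356 and 19 lower. Without control library 1 the counts were 1072 and 1000, without control 2 they were 1331 and 1110, and without control 3 they were 980 and 1327. Without combination library 1 they were 1390 and 1197, without combination 2 they were 2551 and 2728, and without combination 3 they were 2151 and 2091. Of the 3738 calls, 3696 were lost without each of IN10018 libraries 1, 2 and 3 and crizotinib library 3, taken out in turn, while the log2 difference of a called gene moved by a median of 0.03 when an IN10018 library was left out and by 0.17 without crizotinib library 2. No alternative called any of the 3738 genes in the opposite direction. Below, "the 4 libraries" are IN10018 1, 2 and 3 and crizotinib 3, and a call described as lost without them was lost when each of these was left out in turn. The list counts below are to be read beside those over all genes. These were 11.5% higher and 10.3% lower in the 12-library fit, and 230 and 356 of 17457 tested genes without crizotinib library 2. With an offset for GC content and gene length they were 1336 and 920 of 17096.

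**Figure D1:**
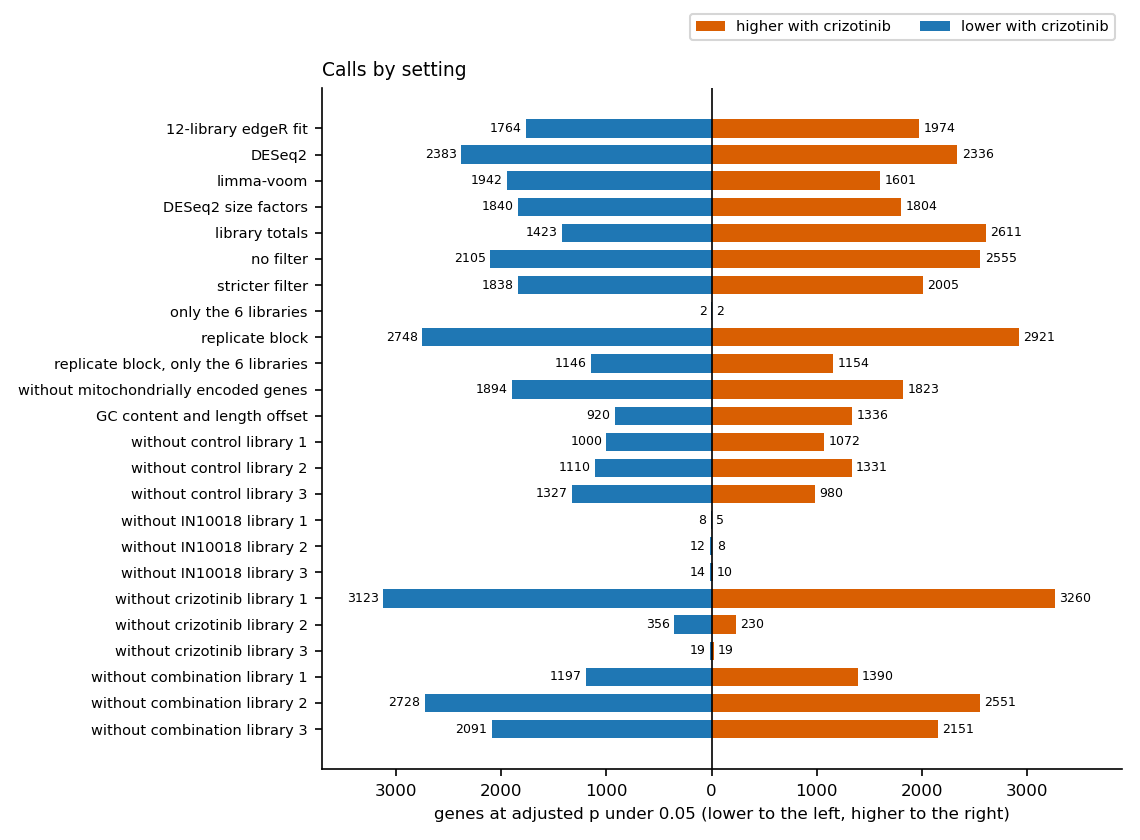
Number of genes (x axis) called higher (orange, to the right) and lower (blue, to the left) with crizotinib than with IN10018 under the test over 12 libraries and each alternative; 1 bar per setting and direction. The bars of the 6-library fit (2 and 2) and of the fits without an IN10018 library are close to 0, and the longest bars are those without crizotinib library 1 (3260 and 3123).

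Calls of 12 genes held without each of the 12 libraries in turn, 5 higher and 7 lower with crizotinib. The 7 lower were FOSB, FOS, ATF3, PPP1R15A, CCN1, SLC7A11-AS1 and MCM10, and the 5 higher BCL6, FBXO32, SREBF1, AKR1C2 and IGFL2-AS1. FOSB, FOS, BCL6 and IGFL2-AS1 were called under all 23 alternatives of the fit. The other 8 had an adjusted p of 0.052 to 0.055 in the fit of the 6 libraries.

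Immediate early genes, transcribed within minutes of a growth or stress signal from factors already present in the cell, supplied 5 of the 7. The promoters of 4 immediate early genes and of CCN2, a YAP/TEAD target, are shown. FOSB, FOS and PPP1R15A were among the largest falls of the called genes, EGR1 had a smaller one, and CCN2 is a textbook TEAD target. Each line holds the 250 bases before the RefSeq start (GRCh38.p14), 5′ to 3′ on the gene's strand; capitals mark the CRE core TGACGT on either strand, to which CREB and ATF factors bind, the CArG box of SRF, and, in CCN2, the TEAD site GGAATG.
FOSB, chr19:45467746-45467995, plus strand: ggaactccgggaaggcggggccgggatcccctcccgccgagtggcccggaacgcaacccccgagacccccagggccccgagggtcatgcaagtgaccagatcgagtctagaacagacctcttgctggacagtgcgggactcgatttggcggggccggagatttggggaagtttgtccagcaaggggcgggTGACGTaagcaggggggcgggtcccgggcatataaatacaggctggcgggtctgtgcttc
FOS, chr14:75278578-75278827, plus strand: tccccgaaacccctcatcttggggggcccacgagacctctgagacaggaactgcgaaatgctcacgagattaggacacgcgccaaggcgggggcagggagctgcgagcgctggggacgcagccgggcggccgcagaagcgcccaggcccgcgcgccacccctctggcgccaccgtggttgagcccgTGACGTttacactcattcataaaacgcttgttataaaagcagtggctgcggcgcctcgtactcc
PPP1R15A, chr19:48872171-48872420, plus strand: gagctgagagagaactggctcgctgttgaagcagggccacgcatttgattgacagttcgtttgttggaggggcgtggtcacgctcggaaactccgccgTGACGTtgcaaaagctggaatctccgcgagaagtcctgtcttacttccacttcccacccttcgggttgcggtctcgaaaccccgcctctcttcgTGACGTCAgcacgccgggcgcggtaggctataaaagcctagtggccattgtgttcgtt
EGR1, chr5:138465229-138465478, plus strand: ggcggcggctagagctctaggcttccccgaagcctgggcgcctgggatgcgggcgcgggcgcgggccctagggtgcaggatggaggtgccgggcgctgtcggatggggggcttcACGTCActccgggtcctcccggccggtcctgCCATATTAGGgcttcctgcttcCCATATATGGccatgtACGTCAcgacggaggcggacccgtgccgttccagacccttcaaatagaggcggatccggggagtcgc
CCN2, chr6:131951373-131951622, minus strand: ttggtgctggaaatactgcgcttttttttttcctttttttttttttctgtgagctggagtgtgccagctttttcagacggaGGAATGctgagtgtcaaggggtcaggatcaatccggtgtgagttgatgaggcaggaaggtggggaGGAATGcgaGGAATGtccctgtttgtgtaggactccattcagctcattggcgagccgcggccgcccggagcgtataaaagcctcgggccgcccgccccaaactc
The CRE core lay 60 to 55 bases before the start in FOSB and 64 to 59 in FOS. PPP1R15A held it 152 to 147 bases before the start and again in the palindrome TGACGTCA, where the matches of the opposite strands overlap. EGR1 held it 136 to 131 and 67 to 62 bases before the start, on the other strand, with CArG boxes at 105 to 96 and 83 to 74. Among tested genes with a promoter in the RefSeq table the CRE core was in 1307 of 10685 (12.2%), in 13.1% of those called lower and 11.1% of those called higher, and in 10 of 28 immediate early genes (35.7%). The TEAD letters, searched on both strands, were in 13.0% of the 10685 promoters and in 8 of 17 YAP/TEAD targets (47.1%). The CArG box was in 1.4% of the 10685 promoters and in 2 of 28 immediate early genes (7.1%). The AP-1 letters TGANTCA were in 6.0% of the promoters and in 0 of 28 immediate early genes. Bases beyond the 250 were not searched, so a site farther upstream would be missed. A match is a description of these bases and not evidence of binding.

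FOSB, an AP-1 subunit, showed the largest fall among the called genes. Its level was 210.0, 185 and 191 CPM in the IN10018 libraries and 24.5, 27.1 and 18 in the crizotinib libraries, against 483 ± 102 (SD, n = 3) in the control. No crizotinib library came near an IN10018 library, and the log2 difference was -3.07 ± 0.17 (SE; edgeR adjusted p = 9.9e-07), and -3.07 (adjusted p = 0.00017) in the 6 libraries alone. FOS, its paralog, was at 430.2, 374 and 413 CPM with IN10018 and 168, 145 and 119.9 with crizotinib, a log2 difference of -1.49 ± 0.18 (edgeR adjusted p = 0.0028). Against the control, FOSB was at -4.38 with crizotinib and -1.31 with IN10018, and FOS at -2.71 and -1.22, all called; these contrasts share the control libraries, as do all drug-against-control values below.

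ATF3, a stress-responsive CREB-family repressor, was at 3.39, 2.57 and 2.68 CPM with IN10018 and 0.828, 0.399 and 0.762 with crizotinib, both far under the control mean of 23.4 ± 2.77. ATF3 fell by 2.11 ± 0.29 in log2 (edgeR adjusted p = 0.0052). PPP1R15A (GADD34), which directs a phosphatase to eIF2α and ends the integrated stress response, was at 75, 68.3 and 65.3 CPM with IN10018 and 18, 30.9 and 19 with crizotinib (log2 -1.62 ± 0.18, edgeR adjusted p = 0.0018). Crizotinib library 2 was the highest of its group for PPP1R15A and the lowest for ATF3. CCN1, a secreted matricellular protein that is both an immediate early gene and a YAP target, was at 101, 86.1 and 103 CPM with IN10018 and 51.3, 40.6 and 51.5 with crizotinib (log2 -1.02 ± 0.13, edgeR adjusted p = 0.0028). Each of the 3 crizotinib libraries was below each IN10018 library for CCN1.

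Of 36 tested immediate early genes, 13 were called lower and 5 higher, with a median log2 difference of -0.29 against 0.04 over all genes. Beyond those above, KLF4, a transcription factor of epithelial differentiation, had a log2 difference of -2.82 ± 0.43 (edgeR adjusted p = 0.009), from 2.22, 1.51 and 1.93 CPM to 0.355, 0.057 and 0.381. KLF4 in crizotinib library 2 lay below the 0.181 CPM that 3 reads give there, and the call was lost without IN10018 library 1 (log2 -2.68). TRIB1, a pseudokinase scaffold, was at 79.5, 74.2 and 84 CPM with IN10018 and 46.7, 36.3 and 48.4 with crizotinib (log2 -0.85), lost without IN10018 1 or 3 (-0.85 to -0.83). EGR1 (-0.74), JUN (-0.85), NR4A1 (-0.72) and NR4A2 (-0.75) were also called lower, and lost without the 4 libraries, where their values lay between -0.95 and -0.56. EGR1 was at 32.5, 30.6 and 35.6 CPM with IN10018 and 18.4, 19.5 and 21.2 with crizotinib, without overlap. The other 2 called lower were MCL1 (-0.55), an anti-apoptotic BCL2 relative, and the kinase SGK1 (-0.54). MCL1 was lost without the 4 libraries (-0.63 to -0.55), and SGK1 without those and crizotinib 2 (-0.56 to -0.37).

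The 5 immediate early genes called higher were JUND (0.82), the AP-1 subunit with high basal expression, IER2 (0.80), BTG1 (0.59), an antiproliferative protein, ID1 (0.58) and HES1 (0.50). JUND was at 57.8, 53.7 and 52.6 CPM with IN10018 and 66.4, 136 and 87.2 with crizotinib, and at 114 ± 3.57 in the control. Crizotinib library 2 held the highest JUND, IER2, ID1 and HES1 of the 6 libraries, and without it none of the 4 was called, nor were they without the 4 libraries. IER2, ID1 and HES1 were also lost without each control or combination 1, and JUND without control 3. Over these fits JUND lay between 0.49 and 0.87, IER2 between 0.46 and 0.88, ID1 between 0.36 and 0.64, and HES1 between 0.43 and 0.56. BTG1 was at 121, 119 and 129 CPM with IN10018 and 172, 186 and 199 with crizotinib, and kept its difference of 0.59 without crizotinib library 2; the call was lost without the 4 libraries (0.53 to 0.61). Without crizotinib 2 the list stood at 1 higher and 12 lower, with an offset for GC content and gene length at 1 higher and 16 lower (median -0.49), and in the 6-library fit at 0 higher and 2 lower. With the offset JUND (0.13), IER2 (0.30), ID1 (0.13), HES1 (0.38) and SGK1 (-0.28) were not called.

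**Figure D2:**
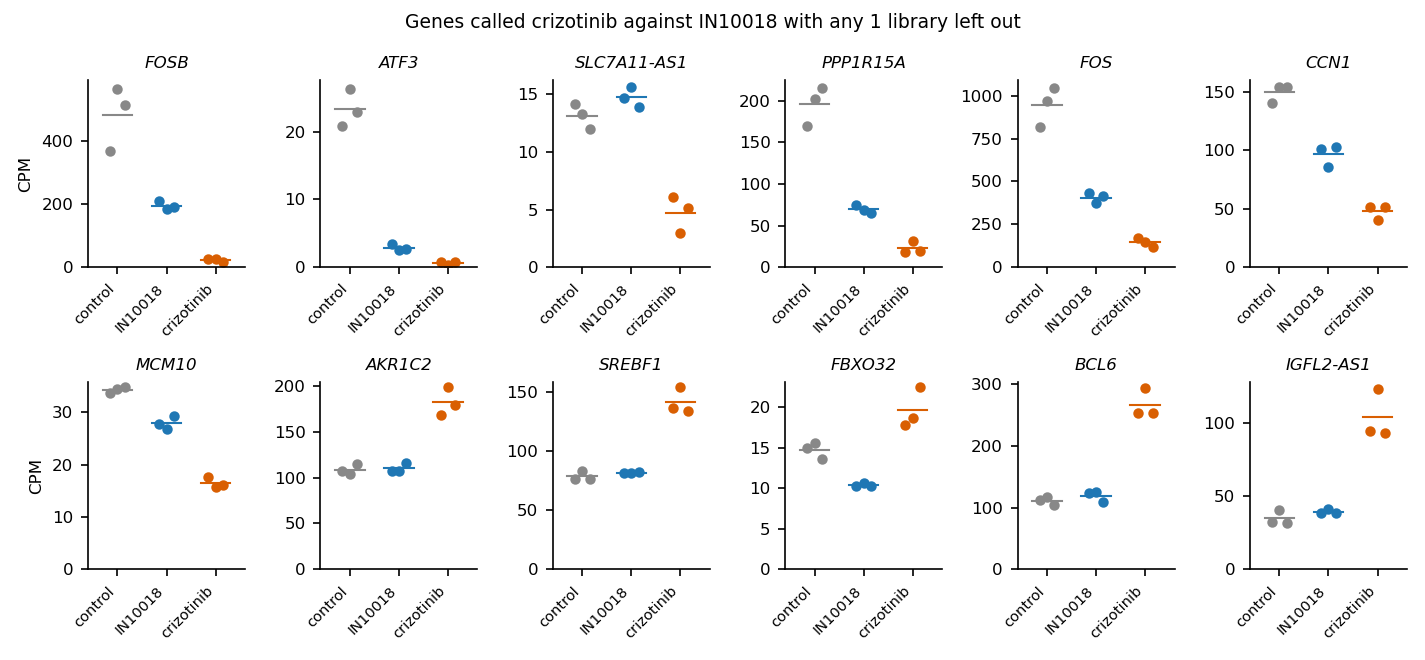
CPM (linear axis from 0) of the 12 genes whose calls held without each of the 12 libraries, 1 point per library and a line at the mean of 3, for control, IN10018 and crizotinib. In each panel the 3 crizotinib points lie on the same side of the 3 IN10018 points; FOSB runs from 185 to 210.0 CPM with IN10018 and from 18 to 27.1 with crizotinib.

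ERK pathway outputs and feedback regulators moved in the same direction as the immediate early genes, with 10 of 29 tested members called lower, 0 higher and a median of -0.27. They included PHLDA1 (-0.64), SPRY2 (-0.58), a feedback inhibitor of receptor kinase signalling, and SPRED2 (-0.74), an inhibitor of RAF activation. PHLDA1 was at 37.1, 40 and 38.1 CPM with IN10018 and 29, 19.9 and 25.2 with crizotinib. Crizotinib library 2 was the lowest in all 3 genes; without it 2 of the 29 were called lower, SPRY2 (-0.41) and SPRED2 (-0.48) no longer being called and PHLDA1 (-0.50) still so. PHLDA1 was lost without the 4 libraries (-0.66 to -0.61), SPRY2 without those and crizotinib 2 (-0.62 to -0.41), and SPRED2 without those 5 and control 1 (-0.78 to -0.48). With the offset 12 of the 29 were called lower, PHLDA1 at -0.34.

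FOXO factors and their catabolic targets were split, 5 of 23 called higher and 3 lower (median 0.04, the same as over all genes), and 2 of the 12 most stable genes were among them. BCL6, a transcriptional repressor and FOXO target, was at 123, 125 and 110.0 CPM with IN10018, 253, 294 and 254 with crizotinib and 112 ± 6.47 in the control. Its log2 difference of 1.16 ± 0.13 (edgeR adjusted p = 0.0018) stood beside 1.26 for crizotinib and 0.10 for IN10018 against the control. FBXO32 (atrogin-1), a ubiquitin ligase subunit, was at 10.3, 10.7 and 10.3 CPM with IN10018 and 17.9, 18.7 and 22.5 with crizotinib (log2 0.91 ± 0.12, edgeR adjusted p = 0.0045). Against a control mean of 14.7 ± 0.983 CPM, FBXO32 was called higher with crizotinib (0.42), while its value with IN10018 (-0.49) was not called. FOXO4 rose (0.72), and CITED2, a CBP/p300-binding transcription cofactor, fell by 0.88. CITED2 was lost without IN10018 library 1 (-0.84), and FOXO4 without the 4 libraries (0.66 to 0.77). FOXO4 was at 0.46 with the offset, and the list had 3 higher and 2 lower without crizotinib 2.

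Cholesterol synthesis genes were mostly higher with crizotinib, and fatty acid genes were split. SREBF1, which encodes the transcription factor SREBP-1 of lipid synthesis genes, was at 81.6, 81.3 and 81.8 CPM with IN10018 and 136, 154 and 134 with crizotinib, with a control at 78.6 ± 3.63. The standard deviation within IN10018 was 0.288 CPM, no crizotinib library came near it, and the log2 difference was 0.79 ± 0.10 (edgeR adjusted p = 0.0028). Of 25 cholesterol synthesis genes 13 were called higher and 0 lower, with a median of 0.36 that was alike in the libraries (0.33, 0.39 and 0.33 for crizotinib 1, 2 and 3 against the IN10018 mean). INSIG1 (0.91), which retains SREBP in the endoplasmic reticulum, TM7SF2 (0.86) and MVD (1.37) of the sterol pathway, the desaturase SCD (0.73) and FASN (0.60), the fatty acid synthase, were called. INSIG1 was at 9.56, 9.89 and 10.8 CPM with IN10018 and 19.5, 15.3 and 22.1 with crizotinib, without overlap. These 5 calls were lost without the 4 libraries, at 0.52 to 1.51, while all 5 were called without crizotinib library 2. MVK (0.97) and EBP (1.24) were lost without crizotinib 2 and without the 4 libraries (MVK 0.65 to 1.07, EBP 0.78 to 1.30). Of the 25 cholesterol synthesis genes, 5 were called higher without crizotinib 2, 14 with the GC and length offset and 0 in the 6-library fit. With the offset FASN (0.24) was not called, and SREBF1 was at 0.47, TM7SF2 at 0.41 and MVD at 0.91. Of 27 fatty acid genes 6 were called higher and 2 lower, with a median of -0.02; the counts were 4 and 0 without crizotinib 2, and 8 and 2 with the offset, which turned the median to 0.14.

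Of 26 genes made up of NRF2, the transcription factor of the antioxidant response, with partners and targets, 12 were called higher and 2 lower (median 0.38). AKR1C2, an aldo-keto reductase, was at 107, 107 and 116 CPM with IN10018 and 168, 199 and 179 with crizotinib (log2 0.73 ± 0.09, edgeR adjusted p = 0.0039). AKR1C1 beside it on chromosome 10 was at 796, 729 and 874 and at 1162, 1298 and 1263 CPM (0.63); these paralogs are nearly identical in sequence, so reads may be shared between them. AKR1C1 was lost without IN10018 1 or 2 (0.57 to 0.63). SQSTM1 (0.57), an autophagy receptor, FTL (0.66), the ferritin light chain, and HMOX1 (0.91), the heme oxygenase, also rose; SQSTM1 and FTL were lost without the 4 libraries (0.54 to 0.67), and HMOX1 without these and crizotinib 2 (0.74 to 0.95). NFE2L2, which encodes NRF2 (-0.43, adjusted p = 0.051), and NQO1 (0.40, adjusted p = 0.071), a classical target, were not called by edgeR. Without crizotinib 2 the list had 7 called higher and 1 lower, and with the GC and length offset 8 and 2, where FTL (0.28) and HMOX1 (0.48) were not called and SQSTM1 was at 0.36.

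SLC7A11, the cystine transporter subunit that is also an NRF2 and ATF4 target, went the other way. It was at 569.9, 596 and 621 CPM with IN10018 and 439.7, 246 and 389 with crizotinib, a log2 difference of -0.73 that was lost without the 4 libraries (-0.80 to -0.72) and was -0.25 with the GC and length offset. The antisense transcript SLC7A11-AS1, whose span overlaps that gene on chromosome 4, was at 14.6, 15.6 and 13.9 CPM with IN10018 and 6.09, 2.96 and 5.15 with crizotinib (log2 -1.64 ± 0.22, edgeR adjusted p = 0.0052). The labels' protocols name a directional kit, but the strand setting of the counting is not given in the sources used here, so reads of SLC7A11 and its antisense transcript cannot be told apart.

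A group of transcripts at the IGFL genes on chromosome 19 was higher with crizotinib. The genes next to IGFL2-AS1 were looked up after its values were seen. Of 1187 tested genes on chromosome 19, 314 were called higher and 22 lower, with a median of 0.42. Over all tested genes 11.5% were called higher and 10.3% lower, with a median of 0.04. IGFL2-AS1 (chr19:46189166-46203083, GRCh38, long non-coding) was at 38.8, 41.1 and 38.5 CPM with IN10018 and 94.8, 123 and 93.3 with crizotinib (log2 1.40 ± 0.16, edgeR adjusted p = 0.0018). The pseudogene IGFL1P1, inside its span, was at 9.32, 9.18 and 7.5 CPM with IN10018 and 25.3, 55.6 and 31.5 with crizotinib (2.11), and the non-coding AC007785.1, which ends before IGFL1P1, at 1.97, 2.32 and 1.93 and at 5.86, 13.6 and 5.59 CPM (95% interval of the log2 difference 1.25 to 2.75). All 3 transcripts were separate between the groups, with crizotinib library 2 the highest; without it they stood at 1.25, 1.71 and 1.45 and were still called. IGFL1P1 and AC007785.1 were lost without IN10018 1, 2 or 3 (1.93 to 2.16). Of the protein-coding neighbours, IGFL4 was called (1.00; lost without the 4 libraries and crizotinib 2, at 0.88 to 1.15) and IGFL2 was not (0.35, 95% interval 0.01 to 0.69). Overlapping transcripts share reads here, so the values are not independent.

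Among the kinases that the drugs bind, ROS1 had 0 reads in all 12 libraries, which allows up to 0.0152 CPM (3 reads over the 12 libraries, counting error only). MET, the receptor of hepatocyte growth factor, was at 642, 624 and 676 CPM with IN10018 and 434, 281 and 381 with crizotinib (log2 -0.83 ± 0.16, edgeR adjusted p = 0.018). No crizotinib library overlapped the IN10018 libraries for MET, and the call was lost without the 4 libraries (-0.87 to -0.81). ALK had 26 to 69 reads per library, 3.89, 3.48 and 3.58 CPM with IN10018 and 2.84, 2.62 and 1.65 with crizotinib (-0.61, edgeR adjusted p = 0.049), a call lost without 9 of the 12 libraries: the controls, the IN10018 libraries, crizotinib 2 or 3, and combination 1 (-0.69 to -0.43). PTK2, the gene of IN10018's target, was at 338, 332 and 346 CPM with IN10018 and 295, 180.1 and 237 with crizotinib (-0.51, edgeR adjusted p = 0.033); it was lost without crizotinib 2 (-0.35), control 1 and the 4 libraries, between -0.53 and -0.35, and with the GC and length offset (-0.26). Its relative PTK2B was at 77.5 to 79.3 CPM with IN10018 and 67.9 to 79 with crizotinib, overlapping, with a difference of -0.07 (95% interval -0.27 to 0.12).

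CDH1, the E-cadherin gene named in the series title, had 50 to 78 reads per library. It was at 3.33, 3.93 and 3.79 CPM with IN10018 and 3.19, 3.42 and 3.18 with crizotinib, and the groups overlapped (log2 -0.18, 95% interval -0.62 to 0.27). JUP (plakoglobin), a desmosomal catenin, was called higher (0.63), the only call among 13 tested cadherin and mesenchymal transition genes; it was lost without the 4 libraries (0.58 to 0.65) and was 0.28 with the GC and length offset. Of 30 tested receptor tyrosine kinases and ligands, 6 were called lower and 1 higher, with a median of -0.01; without crizotinib 2 the counts were 2 and 1. EGFR was at 773, 738 and 794 CPM with IN10018 and 557, 244 and 409 with crizotinib (-0.93), and KIT at 3.15, 3.13 and 3.85 and at 1.89, 0.969 and 1.72 CPM (-1.14). VEGFA, the angiogenic ligand, rose from 146, 154 and 141 to 224, 187 and 209 CPM (0.49). These 3 calls were lost without the 4 libraries (EGFR -0.96 to -0.92, VEGFA 0.44 to 0.52), and KIT also without crizotinib 2 (-1.24 to -0.89).

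Of 21 tested YAP/TEAD targets 7 were called lower and 0 higher, with a median of -0.38. Besides CCN1, AMOTL2, a YAP target that binds YAP in turn, was at 48.3, 47.9 and 49.8 CPM with IN10018 and 31.8, 31.3 and 35.1 with crizotinib (-0.57 ± 0.09, edgeR adjusted p = 0.01). AJUBA (-0.44), EMP1 (-0.87) and TEAD1 (-0.75) were called as well. TEAD1 was at 623, 613 and 631 CPM with IN10018 and 452, 279.9 and 381 with crizotinib, without overlap. CCN2 was barely detected, at 0.247, 0.202 and 0.344 CPM with IN10018 and 0.0592, 0.114 and 0.0635 with crizotinib, under the level of 3 reads in the latter, and it was not called (log2 -1.61, 95% interval -2.89 to -0.33). YAP1 was at 73.4, 72.7 and 72.5 and at 59.5, 41.3 and 60.7 CPM (-0.44, edgeR adjusted p = 0.056), and WWTR1, the TAZ gene, at 60.8, 62.4 and 61.7 and at 47.1, 36.6 and 47.8 CPM (-0.49, adjusted p = 0.026). AMOTL2 was lost without IN10018 1, 2 or 3 (-0.59 to -0.57), and AJUBA (-0.49 to -0.41), EMP1 (-0.92 to -0.85) and TEAD1 (-0.78 to -0.75) without the 4 libraries; WWTR1 was lost without these and crizotinib 2 (-0.57 to -0.38). Without crizotinib 2, 6 of the 21 targets were called lower, and with the GC and length offset 10. Of 24 Hippo pathway genes 7 were called lower and 0 higher (median -0.19), LATS1 (-0.82), a kinase that inhibits YAP, among them; 5 remained called without crizotinib 2, LATS1 not being called there or without the 4 libraries (-0.87 to -0.64). With the offset the Hippo genes had 6 called lower and 1 higher (median -0.08), TEAD1 was at -0.41 and LATS1 at -0.48.

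Thioredoxin and peroxiredoxin genes, which pass electrons from NADPH to oxidised proteins and peroxides, moved in both directions. Of 23 tested, 5 were called higher and 1 lower (median 0.14). TXN, cytosolic thioredoxin, was at 107, 112 and 111 CPM with IN10018 and 103, 80.1 and 98.7 with crizotinib (-0.23, 95% interval -0.47 to 0.02, edgeR adjusted p = 0.15). TXNRD1, its reductase, was called lower (-0.43, edgeR adjusted p = 0.043), at 389, 384 and 436 against 352, 241 and 301 CPM, and TXNIP, which binds and inhibits thioredoxin, was at 40.3, 41.2 and 45.4 against 56.4, 49.2 and 53.9 CPM (0.33, adjusted p = 0.052). In all 3 genes crizotinib library 2 was the lowest of its group. Mitochondrial TXN2 (0.94) and the peroxiredoxins PRDX2 (0.65) and PRDX5 (1.25) were called higher; PRDX5 was at 73.8, 63.5 and 74.3 CPM with IN10018 and 108, 257 and 138 with crizotinib. Without crizotinib 2, 1 of the 23 was called, and TXN2 (0.43), PRDX5 (0.80) and TXNRD1 (-0.30) were not; All 4 genes were lost without the 4 libraries, TXNRD1 also without each control library or combination 1, and TXN2 without control 3. Over these fits PRDX2 lay between 0.61 and 0.69, PRDX5 between 0.80 and 1.35, TXN2 between 0.43 and 1.04, and TXNRD1 between -0.47 and -0.30. With the offset TXN2 (0.56) and TXNRD1 (-0.22) were not called, PRDX2 was at 0.27 and PRDX5 at 0.66.

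**Figure D3:**
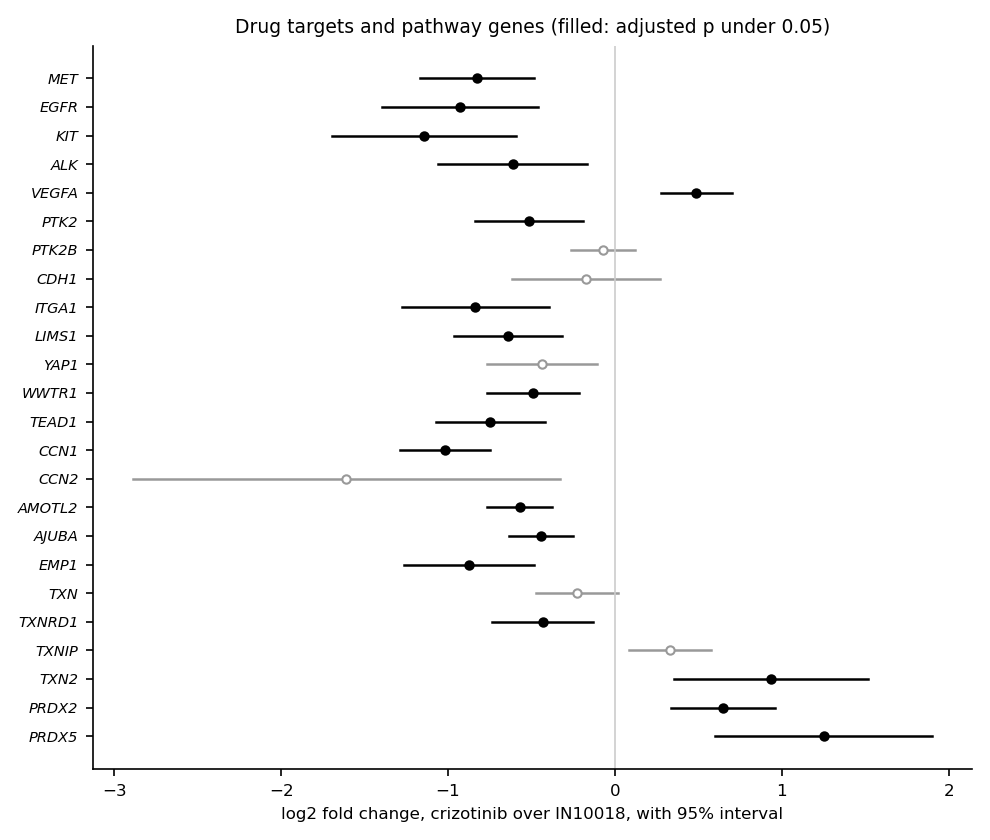
Log2 difference, crizotinib minus IN10018, of drug targets, title genes and members of the receptor kinase, adhesion, YAP/TEAD and thioredoxin lists; points are edgeR estimates over 12 libraries, filled where called, and bars 95% intervals. MET (-0.83) and TEAD1 (-0.75) lie below 0 with their intervals, and the intervals of CDH1 and PTK2B include 0.

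Genes of the cell cycle were mostly lower with crizotinib than with IN10018. Of 50 tested DNA replication genes 21 were called lower and 1 higher (median -0.29), of 62 G2 and mitosis genes 34 lower and 2 higher (-0.34), and of 24 G1 cyclins, kinases and inhibitors 8 lower and 0 higher (-0.32). MCM10, a replication initiation factor, was at 27.8, 26.9 and 29.3 CPM with IN10018 and 17.6, 15.7 and 16.1 with crizotinib (-0.77 ± 0.11, edgeR adjusted p = 0.0052), and at 34.3 ± 0.571 in the control. RRM1, the large subunit of ribonucleotide reductase, was at 127, 122 and 123 and at 87.2, 80.3 and 86.7 CPM (-0.55), and RRM2, the small subunit, was called lower too (-0.90). DTL (-0.78), a ubiquitin ligase adaptor, was called lower, whereas CDT1 (0.66), the licensing factor that this adaptor marks for degradation, was the replication gene called higher. CDK6 was at 206, 216 and 213 CPM with IN10018 and 132, 86.1 and 120.0 with crizotinib (-0.91), and E2F7 (-1.07), RBL1 (-0.88), RB1 (-0.99) and CCNE2 (-1.10) were called lower. Of mitotic genes, CENPF was at 832, 838 and 769 against 557, 551 and 604 CPM (-0.51), ASPM at 465, 474 and 425 against 271, 138 and 229 (-1.10), and ECT2 was lower by 0.94 in log2. ASPM, ECT2, RBL1 and RB1 had their lowest level in crizotinib library 2. RRM1, RRM2, DTL, CENPF, ASPM, ECT2, RBL1 and CCNE2 were lost without the 4 libraries (-1.16 to -0.49), as was CDT1 (0.63 to 0.67). CDK6 was lost without IN10018 1, 2 or 3 (-0.93 to -0.90), E2F7 without IN10018 1 or 2 or crizotinib 3 (-1.06 to -1.04), and RB1 without crizotinib 2 and the 4 libraries (-1.01 to -0.68). Without crizotinib 2 the counts called lower were 7, 17 and 5 for replication, mitosis and G1 genes. With the GC and length offset they were 20, 24 and 9, and the medians shrank to -0.17, -0.17 and -0.28. There CENPF (-0.06) and CDT1 (0.16) were not called, and RRM1 (-0.33), DTL (-0.51), CDK6 (-0.57), RBL1 (-0.54), RB1 (-0.63), ASPM (-0.63) and ECT2 (-0.53) were.

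Homologous recombination and Fanconi anemia genes, which repair broken and crosslinked DNA, had 19 of 33 called lower and 0 higher (median -0.38). BRCA2 was at 57.6, 60.3 and 54.1 CPM with IN10018 and 35.1, 20.4 and 28.2 with crizotinib (-1.04 ± 0.17, edgeR adjusted p = 0.011). FANCI, which with its partner marks crosslinks, was at 219.6, 213 and 211 and at 145, 154 and 145 CPM (-0.54), and FANCB (-1.03), BARD1 (-0.89), the partner of BRCA1, and the checkpoint kinase ATR (-0.91) were called lower. For FANCI the crizotinib libraries were alike, and for the other 4 library 2 was the lowest. Without crizotinib 2, 12 of the 33 were called, and all 5 genes remained so; all 5 were lost without the 4 libraries (-1.09 to -0.53). With the GC and length offset 7 were called and the median of the list was -0.21. There FANCI (-0.21) was not called, and BRCA2 was at -0.54, FANCB at -0.66, BARD1 at -0.51 and ATR at -0.47.

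Focal adhesion genes, the site of FAK's action, had 13 of 43 called lower and 1 higher (median -0.16). ITGA1, an integrin collagen receptor subunit, was at 1407, 1478 and 1442 CPM with IN10018 and 1057, 534 and 832 with crizotinib (-0.84), and LIMS1 (-0.64), an adaptor of integrin-linked kinase, and ITGAV (-0.79) were lower too. SRC, the kinase that phosphorylates FAK, was the gene called higher (0.43), at 7.9, 8.17 and 10.3 against 11.4, 12.6 and 11.3 CPM. Crizotinib library 2 had the lowest ITGA1, LIMS1 and ITGAV, and without it 2 of the 43 were called lower and 0 higher: ITGAV (-0.54) and SRC (0.38) were not called, ITGA1 (-0.61) and LIMS1 (-0.47) were. ITGA1, LIMS1, ITGAV and SRC were lost without the 4 libraries (ITGA1 -0.87 to -0.82, LIMS1 -0.69 to -0.63, ITGAV down to -0.87), and SRC also without each control (0.36 to 0.53). With the GC and length offset 6 of the 43 were called lower and 0 higher; SRC (0.19) was not called, and ITGA1 was at -0.35, LIMS1 at -0.40 and ITGAV at -0.39. Of 33 matrix genes 4 were called higher and 4 lower, beside 11.5% and 10.3% of all tested genes. The counts were 1 and 2 without crizotinib 2, or 2 and 6 with the offset. LAMB1, a laminin chain, was at 68.3, 68.3 and 70.3 against 42.6, 35.7 and 44.4 CPM (-0.75), lost without IN10018 1, 2 or 3 (-0.76), and TIMP1, a metalloproteinase inhibitor, at 183, 185 and 199.8 against 288, 504 and 356 CPM (1.01; 0.58 with the offset), lost without the 4 libraries (0.99 to 1.05).

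The integrated stress response genes were mixed. Of 32 tested, 9 were called higher and 4 lower (median 0.14). NUPR1, a stress-induced chromatin protein, was at 0.494, 0.858 and 0.826 CPM with IN10018 and 2.72, 4.9 and 2.86 with crizotinib (2.25 ± 0.32, edgeR adjusted p = 0.0057). DDIT4, an inhibitor of mTORC1, was at 14.6, 13.9 and 15 against 24.9, 25.9 and 26.1 CPM (0.82 ± 0.12, adjusted p = 0.0057), with a standard deviation of 0.57 CPM with IN10018 and 0.64 with crizotinib. ATF4 itself (0.57) and DDIT3 (0.79), a pro-apoptotic ATF4 target, were called higher, while ATF3, PPP1R15A, SLC7A11 and the amino acid transporter SLC38A2 (-0.77) were the 4 called lower. NUPR1 was lost without IN10018 1 (2.04), DDIT4 without IN10018 1 or 2 (0.79 to 0.83), ATF4 without the 4 libraries (0.55 to 0.58), and DDIT3 (0.64 to 0.86) and SLC38A2 (-0.81 to -0.54) without these and crizotinib 2. Without crizotinib 2 the list had 4 higher and 3 lower, and with the GC and length offset 4 and 5; there DDIT4 (0.37) was not called, ATF4 was at 0.32 and SLC38A2 at -0.38.

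Most calls among genes of antigen presentation and of the lysosome were on the higher side with crizotinib. Of 32 interferon-responsive and MHC class I genes 9 were called higher and 1 lower (median 0.31): HLA-C was at 103, 94.4 and 108 against 125, 228 and 169.7 CPM (0.78), and HLA-B at 14.6, 14.3 and 18.1 against 20.2, 33.3 and 27.2 (0.78). These class I genes are close paralogs among which reads may be divided. Of 40 lysosome and autophagy genes 14 were called higher and 1 lower (median 0.27); the protease CTSD was at 75.2, 66.9 and 87.8 against 123, 294 and 168 CPM (1.35), and GRN, a lysosomal growth factor precursor, at 463, 438 and 495 against 576, 771 and 672 (0.53). Crizotinib library 2 was the highest for all 4 genes, and without it 3 of the 32 and 5 of the 40 were called higher; CTSD (0.92) and HLA-B (0.60) were not called. All 4 were lost without the 4 libraries (0.49 to 1.43). With the GC and length offset the counts called higher were 7 and 12, and GRN (0.12), HLA-B (0.40) and HLA-C (0.31) were not called, while CTSD was at 0.84.

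NEAT1, the long non-coding RNA that builds paraspeckles, was above the control with either drug and higher with crizotinib. It was at 1881, 1986 and 1519 CPM with IN10018 and 3236, 3261 and 2702 with crizotinib, against 718 ± 158 in the control (0.77 ± 0.17, edgeR adjusted p = 0.021), and was lost without the 4 libraries (0.65 to 0.85). The 12 largest falls were taken from genes without overlap and with a mean log2 CPM of at least 1 over all 12 libraries. Among these 12 falls, 2 protein-coding genes belonged to none of the lists described. PLCXD2, a phospholipase-like protein, was at 8.95, 8.57 and 8.95 against 4.73, 1.94 and 2.61 CPM (-1.51), and MBNL3, a splicing regulator, at 3.02, 2.82 and 3.03 against 2.01, 0.741 and 0.762 (-1.33). PLCXD2 was lost without the 4 libraries (-1.53 to -1.41), and MBNL3 without these, crizotinib 2 and each control (-1.36 to -1.07) and with the GC and length offset (-0.86). Of the markers of other cell types, the endothelial genes PECAM1 (0.83) and CDH5 (-0.75) were called in opposite directions, and the adipocyte markers PLIN1 (1.01) and FABP4 (0.47) were called higher. PECAM1 (0.77 to 0.88) and CDH5 (-0.89 to -0.72) were lost without the 4 libraries, PLIN1 without these and crizotinib 2 (0.96 to 1.07), and FABP4 without 10 of the 12 libraries (0.26 to 0.50; all but crizotinib 1 and combination 2).

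Cytosolic ribosomal protein genes had 51 of 75 called higher and 3 lower (median 0.43). RPL29 was at 323, 316 and 348 CPM with IN10018 and 432, 479 and 474 with crizotinib (0.49), and RPL13 at 233, 229.9 and 229.9 and at 319.5, 808 and 455 (1.19); RPS10 was lower (-0.76), at 4.63, 4.94 and 3.37 against 2.43, 3.36 and 1.84 CPM. The list's median was 0.29, 0.61 and 0.38 in crizotinib libraries 1, 2 and 3, and 10 of 75 were called higher without library 2, or 38 with the offset, where RPL29 (0.19) was not called. Many processed pseudogenes resemble these genes, so their reads are uncertain. Nuclear genes of the respiratory chain had 17 of 48 called higher and 1 lower (median 0.26), COX4I1 at 171, 176 and 185 against 232, 435 and 297 CPM (0.86) among them, and 1 of 48 without crizotinib 2. RPL13 (0.75) and COX4I1 (0.58) were not called without crizotinib 2, and all 4 genes were lost without the 4 libraries (RPL29 0.46 to 0.52, RPL13 0.75 to 1.27, COX4I1 0.58 to 0.89, RPS10 -0.92 to -0.60). Mitochondrially encoded genes had a median of -0.45, made up of 0.14, -1.36 and -0.46 in the 3 crizotinib libraries, and 1 of 15 was called: MT-RNR1 (-0.56), lost without crizotinib 2 and the 4 libraries (-0.64 to -0.42).

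**Figure D4:**
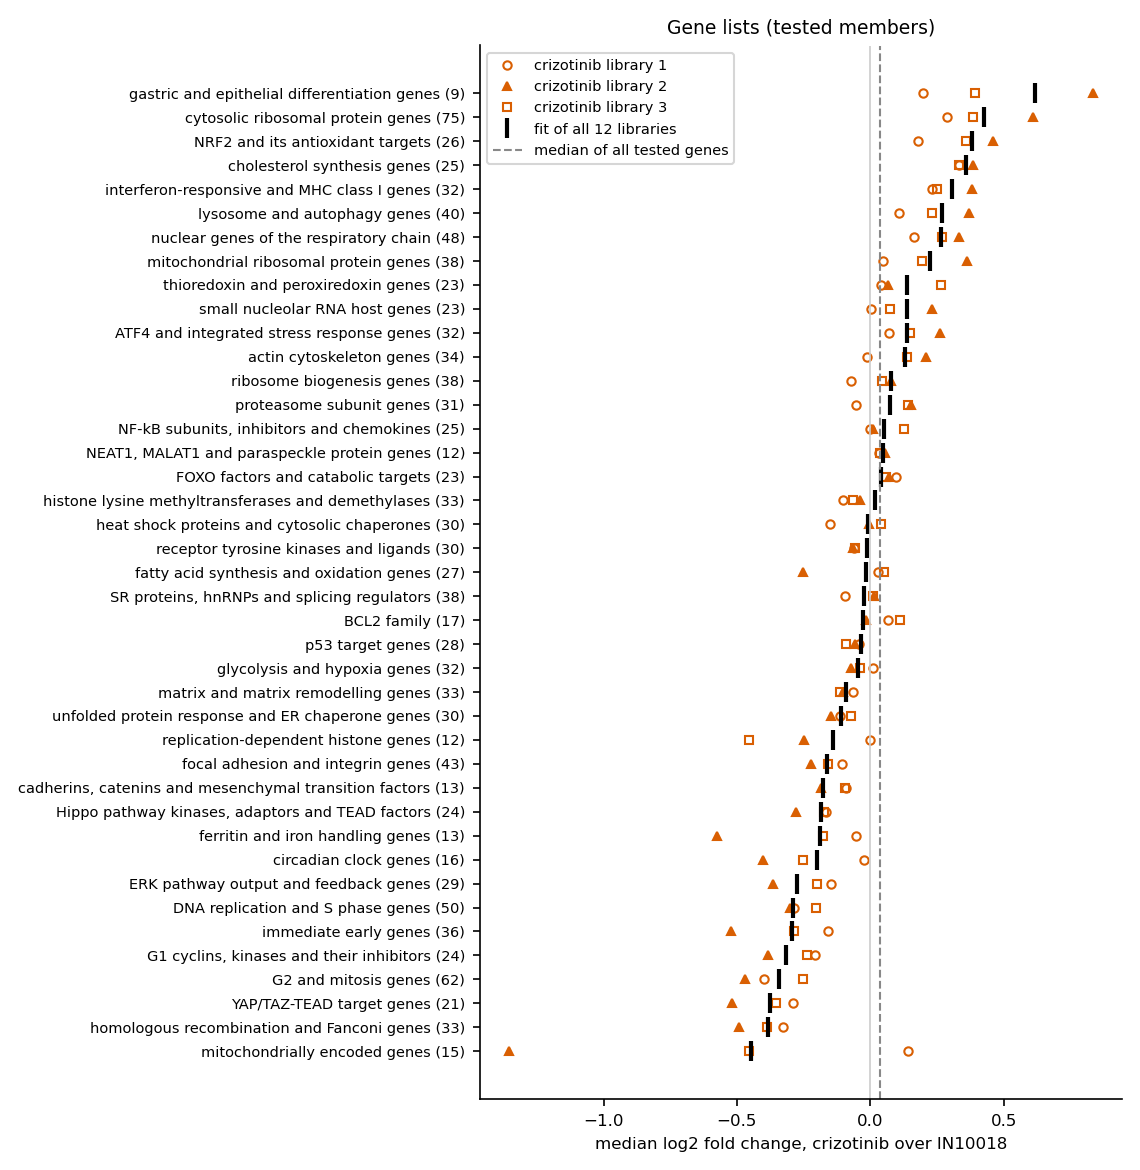
Median log2 difference (x axis), crizotinib minus IN10018, of the tested members of each gene list, for crizotinib libraries 1, 2 and 3 (circles, triangles and squares), with the edgeR fit of all 12 libraries (black bars), the number tested in brackets and the median of all genes as a dashed line. The triangles of library 2 lie at -1.36 for mitochondrially encoded genes and 0.61 for ribosomal protein genes, while cholesterol synthesis genes lie at 0.33 to 0.39.

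The difference between the drugs followed base composition across the genome. Protein-coding genes called higher had a median GC content of 59.1% and 3599 exon bases, those called lower 41.7% and 7275, and those not called 49.4% and 5033. Over 4 equal bins of protein-coding genes from the lowest to the highest GC content, the median log2 difference was -0.35, -0.14, 0.14 and 0.45, and the calls were 35 higher to 985 lower in the lowest bin and 1026 to 21 in the highest. In the highest bin the median was 0.23, 0.69 and 0.32 for crizotinib libraries 1, 2 and 3, and in the lowest -0.20, -0.64 and -0.25, the same order of libraries as on the first principal component. With an offset for GC content and length in the fit, the medians of the bins lay between 0.01 and 0.08, and 1336 genes were called higher and 920 lower, 1508 of the 3738 among them. The offset left FOSB at -3.30, FOS at -1.79, BCL6 at 1.19, FBXO32 at 1.08, AKR1C2 at 1.00, SREBF1 at 0.47 and MCM10 at -0.57, each still called. The labels give nothing on RNA quality or library batch, and the part of base composition, of crizotinib library 2 and of the mitochondrial share in the results above was not tested beyond these fits.

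**Figure D5:**
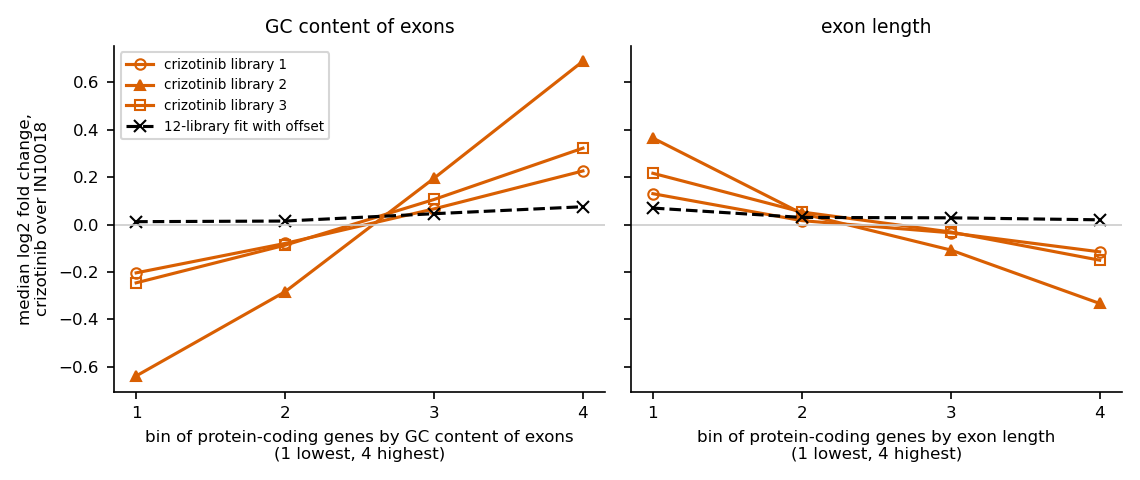
Median log2 difference, crizotinib minus IN10018, in 4 bins of protein-coding genes by GC content (left) and by exon length (right), for each crizotinib library against the IN10018 mean and for the 12-library fit with the GC and length offset (dashed). The line of library 2 is the steepest, from -0.64 to 0.69 over GC content, and the offset medians stay between 0.01 and 0.08.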

How the data were processed

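RNA-sequencing read counts per gene were used for 12 libraries of NUGC-4 cells. The deposited matrix holds raw counts, whole reads for 60623 gene IDs; the authors' steps, per the submitters' processing notes, involve Trimmomatic, FastQC, HISAT2, featureCounts and DESeq2 with hg38/GRCh38, versions, annotation release and strand setting not given in the sources used here. Total RNA was taken with TRIzol and made into directional libraries, per the labels' protocols. Counts covered 14908752 to 20059012 reads in the 6 libraries compared, and 3 reads correspond to 0.15 to 0.201 CPM there.

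edgeR 4.0.16 in R 4.3.3 fitted all 12 libraries by group (filterByExpr, TMM, robust quasi-likelihood test, contrast crizotinib minus IN10018, 8 residual degrees of freedom); genes were called at a Benjamini-Hochberg adjusted p under 0.05 over 17096 genes, and p-values in the text are these unless named. The standard error is the size of the log2 difference over the root of F. CPM values are reads per 1e+06 of the TMM-scaled total. Alternatives were DESeq2 1.42.0, limma-voom 3.58.1, other scalings and filters, the 6 libraries alone (4 residual degrees of freedom), replicate blocks, removal of mitochondrially encoded genes, an offset for GC content and length (splines with 5 degrees of freedom) and each library left out. Every fit pooled the spread of a gene over its groups, also where a group was reduced to 2 libraries. In the main fit the control and combination libraries thus enter the error of the contrast. The pooled spread was taken as equal between groups, although the median standard deviation of log2 CPM was 0.268 within crizotinib and 0.109 within IN10018. An exact permutation test of 3 against 3 libraries cannot go below p = 0.1 and was not used. On simulated counts for 16713 genes in this contrast, 200 genes with a mean log2 CPM of at least 1 were changed by 1 or 2 in log2. Recovery was 84% for a change of 1 in log2 and 100% for 2. Recovery at the median size of the real calls (0.67 higher, 0.59 lower) or in genes of fewer reads was not measured. False calls made up 7.07% of the calls there. Whether these rates hold at the unequal spread of the crizotinib and IN10018 libraries was not tested.

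The members and the 46 gene lists were chosen with earlier results of these data known. Named genes were the 12 largest changes each way without overlap and at a mean log2 CPM of at least 1, the drug targets and title genes, and up to 4 genes of smallest p per list, of which some are left out. The mean log2 CPM was edgeR's over all 12 libraries. A gene low in both single-drug groups, such as ATF3, could therefore pass through the control or combination libraries. Others in the text were chosen after their values were seen, among them ATF4, DDIT3, EGR1, JUN, NR4A1, NR4A2, JUND, IER2, BTG1, EMP1, CCN2, SRC, SLC7A11, NQO1, RRM2, CDT1, FOXO4, CTSD, RPL13, RPS10 and the IGFL transcripts. Gene positions, classes and GC content came from GENCODE 29 (GRCh38), which held 96.52% of IDs, and promoters from RefSeq (GRCh38.p14), matched by symbol for 10685 tested genes. Replicate numbers showed no pairing between the IN10018 and crizotinib libraries, the only groups checked, and the main fit used no block.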

Additional observations from a re-analysis of the deposited data

How the results depend on the processing

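The 2 counts of called genes, 1974 higher and 1764 lower, stayed within 1.5 times under DESeq2 (2336 and 2383), limma-voom (1601 and 1942), DESeq2 size factors (1804 and 1840), library totals (2611 and 1423), no filter (2555 and 2105), a stricter filter (2005 and 1838) and removal of mitochondrially encoded genes (1823 and 1894). They fell to 2 and 2 with only the 6 libraries, which leaves 4 residual degrees of freedom, and to 316 and 142 where a fold of at least 2 was asked for. With the GC content and length offset they were 1336 and 920; the cause was not tested. Leaving out each library in turn gave 5 to 3260 genes higher and 8 to 3123 lower. Deviations of same-numbered IN10018 and crizotinib libraries had correlations of -0.013, -0.0026 and 0.078. Pairing with the control or combination libraries was not checked. Library 2 had the lowest mitochondrial share of its group with crizotinib (5.21%) and with both drugs (4.28%), and the highest with IN10018 (12.7%). A replicate effect shared by some groups was not tested. With the replicate number as a block the counts were 2921 higher and 2748 lower, and with the block in the 6 libraries alone 1154 and 1146. No gene named in the text changed direction under any alternative. Depth limits genes of few reads, such as KLF4 and CCN2, and ROS1 was not detectable at this depth.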
